A study of Mus musculus with 4 samples.

Results

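The heat-shock response genes described here were 8 mouse genes of the 43348 in the deposited matrices, Hspa1a, Hspa1b, Hspa8, Hsp90aa1, Hsph1, Dnajb1, Hspb1 and Hspa5, taken by their symbols. Hspa1a and Hspa1b had been picked for a high level in shallow oligodendrocytes of 1 WT hippocampal library, replicate 2, so their level in oligodendrocytes is given as a description without a test. The cells were TdTomato-positive (TdT+) cells sorted from frontal cortex and hippocampus of juvenile mice of both sexes (postnatal days 18 to 20) and measured by 10x Genomics single-cell RNA sequencing of transcript 3' ends. All mice carried Nkx2-1-Cre, which is active in progenitors of the medial ganglionic eminence (MGE), and the Ai14 TdTomato reporter, so that cells entered the sort by lineage. WT mice were littermates with intact Grin1 (Grin1 wt/wt), which encodes the obligate NMDA receptor subunit, and null mice were Grin1 fl/fl, in which the Cre lineages lose the gene. There were 3 WT and 2 null libraries per region, 10 in all, from 10 WT and 6 null animals, so several animals contributed to a library. Buffers for recovery, dissociation and sorting held tetrodotoxin, APV and the transcription inhibitor actinomycin-D in every group, and papain digestion lasted 60 min at 37 °C.

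Heat-shock proteins are chaperones that bind unfolded proteins. When these accumulate, heat-shock factor 1 (HSF1) binds inverted repeats of nGAAn units near its target genes and turns them on. Hspa1a and Hspa1b are the inducible HSP70 genes, low in unstressed tissue, whereas Hspa8, the constitutive HSP70, and Hsp90aa1, an HSP90, are made in quantity by resting neurons. Dnajb1 is an HSP40 that delivers substrates to HSP70, Hsph1 (HSP110) is an HSP70 nucleotide exchange factor, and Hspb1 is a small heat-shock protein. Hspa5 (BiP) is the HSP70 of the endoplasmic reticulum, controlled by the unfolded protein response.

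Hspa1a (ENSMUSG00000091971, chr17:34969190-34972156, minus strand, GRCm38) and Hspa1b (ENSMUSG00000090877, chr17:34956436-34959238, minus strand) are single-exon neighbours, with 9951 bases between the start of Hspa1b and the end of Hspa1a. Their coding parts were 99.43% identical (1915 matching bases, 8 mismatches, 3 gap bases), and their 3' untranslated regions, of 813 and 646 bases, were 47.49% identical. Reads from the coding part could be split wrongly between the copies, and how many were was not tested. Hspa8 (ENSMUSG00000015656) lies at chr9:40800984-40810087, Hsp90aa1 (ENSMUSG00000021270) at chr12:110690605-110702728, Hsph1 (ENSMUSG00000029657) at chr5:149614287-149636376, Dnajb1 (ENSMUSG00000005483) at chr8:83608193-83612653, Hspb1 (ENSMUSG00000004951) at chr5:135887919-135889563 and Hspa5 (ENSMUSG00000026864) at chr2:34771970-34777547.

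Promoters of 6 of the 8 genes were matched in RefSeq (GRCm38.p6, 250 bases before to 50 after the start), all except Hspa8 and Hsp90aa1. The 5 below show the near-identical windows of Hspa1a and Hspa1b beside those of Hsph1, Hspb1 and Hspa5, whose levels followed other patterns. Capitals mark pairs of inverted heat-shock units, GAANNTTC or TTCNNGAA, and in Hspa5 the endoplasmic reticulum stress element, CCAAT and CCACG with 9 bases of any kind between them, all searched on both strands.
Hspa1a (chr17:34972107-34972406, minus strand): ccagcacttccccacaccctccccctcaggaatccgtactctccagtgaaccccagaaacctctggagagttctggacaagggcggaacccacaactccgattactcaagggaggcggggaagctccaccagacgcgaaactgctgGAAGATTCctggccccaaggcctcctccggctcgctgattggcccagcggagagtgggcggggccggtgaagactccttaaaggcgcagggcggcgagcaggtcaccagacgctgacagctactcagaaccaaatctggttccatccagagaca
Hspa1b (chr17:34959189-34959488, minus strand): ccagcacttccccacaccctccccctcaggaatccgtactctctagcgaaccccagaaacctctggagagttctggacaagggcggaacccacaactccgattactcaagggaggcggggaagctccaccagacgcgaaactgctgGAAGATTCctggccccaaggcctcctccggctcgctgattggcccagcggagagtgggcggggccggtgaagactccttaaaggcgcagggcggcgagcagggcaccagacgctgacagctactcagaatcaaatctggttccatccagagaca
Hsph1 (chr5:149636287-149636586, minus strand): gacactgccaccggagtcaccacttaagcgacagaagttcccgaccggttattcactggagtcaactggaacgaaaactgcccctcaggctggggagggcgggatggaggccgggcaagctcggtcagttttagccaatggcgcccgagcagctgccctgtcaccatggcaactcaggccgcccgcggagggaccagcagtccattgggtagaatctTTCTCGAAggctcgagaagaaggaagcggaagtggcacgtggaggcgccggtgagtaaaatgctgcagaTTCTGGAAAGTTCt
Hspb1 (chr5:135887669-135887968, plus strand): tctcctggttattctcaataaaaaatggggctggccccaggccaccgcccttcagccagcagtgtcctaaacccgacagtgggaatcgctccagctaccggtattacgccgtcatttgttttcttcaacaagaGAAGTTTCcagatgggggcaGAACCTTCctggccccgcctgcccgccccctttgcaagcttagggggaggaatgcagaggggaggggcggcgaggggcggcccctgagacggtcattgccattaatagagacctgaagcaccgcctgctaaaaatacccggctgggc
Hspa5 (chr2:34771840-34772139, plus strand): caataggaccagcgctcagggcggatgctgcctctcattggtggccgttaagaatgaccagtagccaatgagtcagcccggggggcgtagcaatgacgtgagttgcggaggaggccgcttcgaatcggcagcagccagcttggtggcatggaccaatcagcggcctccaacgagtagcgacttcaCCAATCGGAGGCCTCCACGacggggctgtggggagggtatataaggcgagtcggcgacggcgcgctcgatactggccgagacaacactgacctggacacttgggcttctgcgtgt

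The Hspa1a and Hspa1b windows matched at 296 of 300 bases and differed by C44T, T47C, T249G and C276T, counted from 1 at the 5' end of the window with the Hspa1a base first. Each held 1 heat-shock pair, GAAGATTC, from -104 to -97 relative to the start. Hsph1 held a pair from -33 to -26 and, at 36 to 48 in the transcript, a run of inverted units, TTCTGGAAAGTTC, in which a TTCNNGAA and a GAANNTTC pair overlap. Hspb1 held 2 pairs, from -117 to -110 and from -97 to -90, and the Dnajb1 window (chr8:83607925-83608224, plus strand) held none. The stress element of Hspa5 lay from -65 to -47. Among 32851 RefSeq promoters of this length, 15.06% held either pair, 1.96% held 2 or more, 0.603% held a run of 3 units in which TTCNNGAA and GAANNTTC share their middle unit, and 0.119% held the stress element.

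After filtering, 26201 of 26987 cells remained, with 1452379 to 43644831 UMIs per library and a median from 1479 UMIs per cell in WT hippocampal replicate 2, the shallowest library, to 9763 in null hippocampal replicate 2. Replicate 1 was made with 10x chemistry v2, and replicates 2 and 3 with v3. Cells were clustered again and named from markers as SST-like, PVALB-like and neurogliaform-like (NGFC) interneurons (6706, 2221 and 2177 cells), 7231 mature oligodendrocyte-like cells and 7 smaller classes, and the shorter names are used from here. The SST class includes a cluster of 734 cells named from tyrosine hydroxylase (TH) markers, as the study pooled these with SST. By its markers that cluster also qualified as PVALB but not as SST. Levels are given in CPM, a gene's UMIs divided by all UMIs of the same cells and scaled to the usual fixed total. Grin1 stood at 18.8 to 36.8 CPM in interneurons of the 4 null libraries and at 117 to 240 CPM in the 6 WT libraries. Clusters 4, 12, 15, 16 and 29 came mostly from WT hippocampal replicate 2. Hspa1b was among the 10 leading genes of cluster 4, 1386 mature oligodendrocytes. It had been picked for its level in such cells of that library, so its rank there is no independent result. The 8 genes were kept out of the genes used for clustering.

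The inducible HSP70 pair was low in 6 libraries and higher in the 4 libraries of replicate 2. Over all cells Hspa1a was at 3.87 and 5.74 CPM in WT cortical replicates 1 and 3, at 3.70 and 8.42 CPM in WT hippocampal replicates 1 and 3, and at 6.20 and 7.27 CPM in replicate 1 of null cortex and null hippocampus. In replicate 2 it was at 65.6 CPM in WT cortex, 124 CPM in WT hippocampus, 16.4 CPM in null cortex and 132 CPM in null hippocampus. Hspa1b was at 0 to 2.64 CPM outside replicate 2 and at 44.8, 155, 9.53 and 53.0 CPM in those same 4 libraries. Both genotypes and both regions were thus among the high libraries, with null cortex the lowest of the 4. Replicate 3, with the same v3 chemistry as replicate 2, exists for WT only, so chemistry and replicate cannot be told apart in the null libraries.

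**Figure D1:**
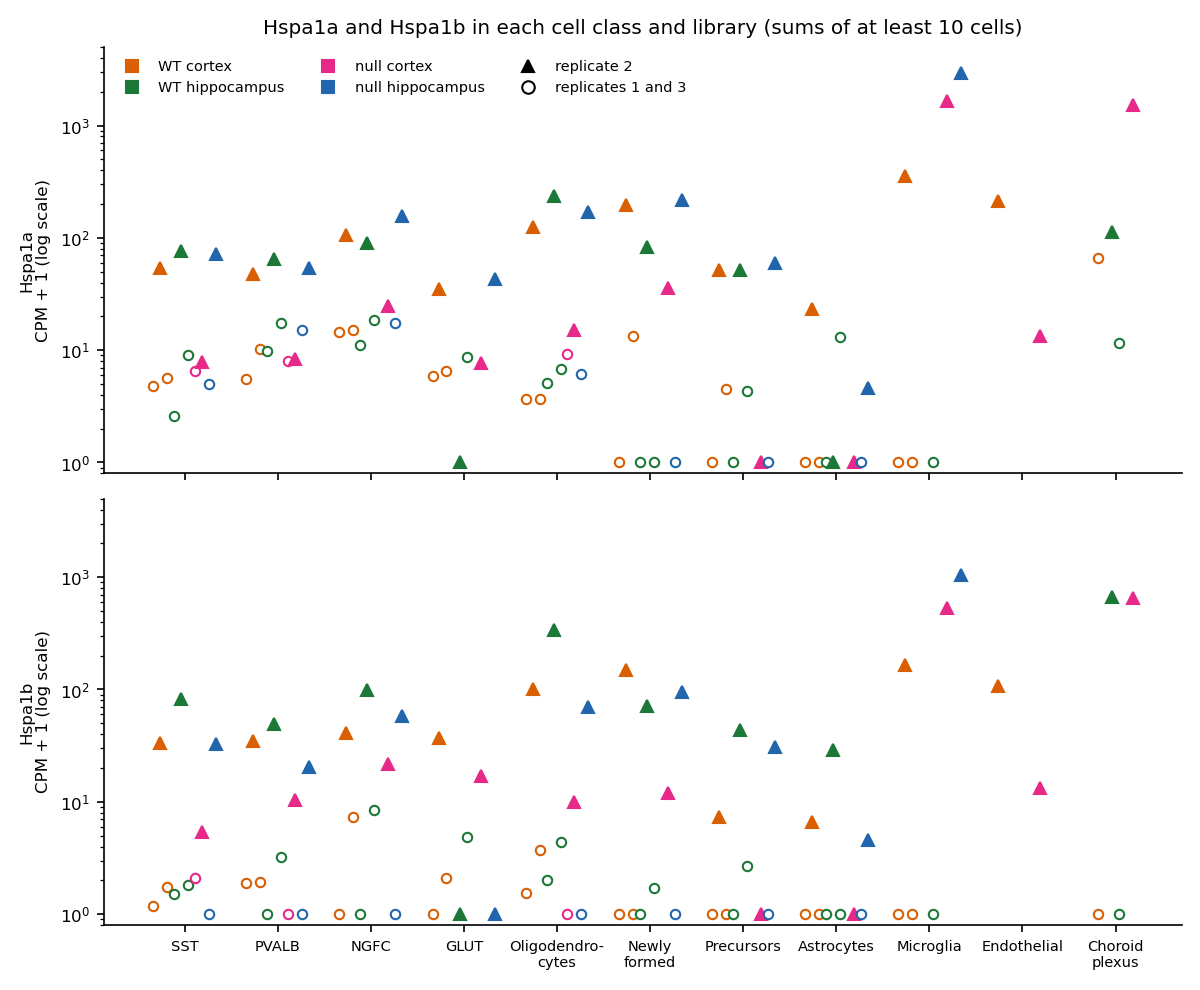
Level of Hspa1a (top) and Hspa1b (bottom) in each cell class, as CPM + 1 on a log scale, with 1 symbol per library with at least 10 cells of the class. Filled triangles are replicate 2 and open circles replicates 1 and 3, and in oligodendrocytes the triangles (14.2 to 235 CPM of Hspa1a) all lie above the circles (2.67 to 8.24 CPM).

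Of 10 classes with libraries of both kinds, every replicate-2 library was above every other in 5 for Hspa1a and 7 for Hspa1b. Both genes overlapped in glutamatergic neurons, oligodendrocyte precursors and astrocytes, where some replicate-2 libraries were at 0. In SST cells Hspa1b was at 4.34 to 81.2 CPM in the 4 replicate-2 libraries and at 0 to 1.11 CPM in the other 6, without overlap. In PVALB cells the ranges were 9.28 to 47.8 and 0 to 2.21 CPM, and in NGFCs 20.8 to 97.7 and 0 to 7.39 CPM. Every replicate-2 library above every other was seen for 2.2% of 12840 genes in SST cells, for 3.05% of 9736 genes in PVALB cells and for 2.08% of the 9728 tested in NGFCs. In mature oligodendrocytes without the WT hippocampal library that the choice used, Hspa1b was at 8.94 to 101 CPM in the other 3 replicate-2 libraries and at 0 to 3.35 CPM elsewhere, against 4.19% of 10297 genes. Hspa1a also separated in NGFCs (23.5 to 156 and 10.2 to 17.7 CPM) and in oligodendrocytes (14.2 to 170 and 2.67 to 8.24 CPM), but overlapped in SST cells (6.88 to 75.5 and 1.57 to 7.98 CPM) and PVALB cells (7.42 to 64.3 and 4.56 to 16.5 CPM), where null cortex was inside the range of the others. These libraries were set apart after their levels were seen, so the separation is a description.

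Newly formed oligodendrocytes and microglia were also high in replicate 2. Newly formed oligodendrocytes had 195, 82.1, 35.0 and 217 CPM of Hspa1a in the 4 replicate-2 libraries and 0 to 12.4 CPM in 5 others. Microglia held 13 Hspa1a UMIs in 39 cells of WT cortical replicate 2 (357 CPM, exact Poisson 95% interval 190 to 610), 96 in 29 cells of null cortical replicate 2 (1637 CPM) and 124 in 24 cells of null hippocampal replicate 2 (2907 CPM). No Hspa1a UMI was found in 104 microglia of WT cortical replicate 3 (interval 0 to 32.4 CPM) or in 43 of WT hippocampal replicate 3 (0 to 58.2 CPM). The 3 microglial sums of replicate 2 rest on 24 to 39 cells each, and the UMIs lay in 4, 11 and 13 cells. In astrocytes the ranges overlapped, with 0 to 22.4 CPM in the 4 replicate-2 libraries and 0 to 12.1 CPM elsewhere.

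In mature oligodendrocytes Hspa1a was at 2.67, 123 and 2.70 CPM in WT cortical replicates 1 to 3, at 4.14, 235 and 5.86 CPM in WT hippocampal replicates 1 to 3, at 8.24 and 14.2 CPM in the null cortical replicates and at 5.17 and 170 CPM in the null hippocampal replicates. Hspa1b was at 0.53, 101 and 2.70, at 0.99, 336 and 3.35, at 0 and 8.94, and at 0 and 69.3 CPM in the same order. The WT hippocampal replicate 2, by which the pair was chosen, had the highest level of both, and outside replicate 2 the mean was 4.80 ± 2.12 CPM for Hspa1a and 1.26 ± 1.43 CPM for Hspa1b (SD, n = 6). Next in rank stood null hippocampal replicate 2 for Hspa1a and WT cortical replicate 2 for Hspa1b. A UMI of Hspa1a was seen in 21.2% of 1172 oligodendrocytes of the chosen library (median 1274 UMIs) but in none of its 33 astrocytes (892 UMIs) and in 11 of its 367 oligodendrocyte precursors (837 UMIs). In null hippocampal replicate 2 it was seen in 33.1% of 1512 oligodendrocytes (8256.5 UMIs) and in 1.41% of 71 astrocytes (3739 UMIs). With each oligodendrocyte thinned to 1000 UMIs, the shares with Hspa1a in replicate 2 were 8.48% (WT cortex), 15.9% (WT hippocampus), 1.39% (null cortex) and 11.6% (null hippocampus), and 0 to 0.877% in the other 6 libraries, after 179, 298, 45 and 10 shallower cells of the replicate-2 libraries were left out.

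Depth of the cell went with the level differently from library to library. Among the chosen library's oligodendrocytes, Hspa1a was at 234 CPM in cells of 500 to 1000 UMIs (298 cells), 214 CPM at 1000 to 2000 UMIs (706 cells) and 265 CPM at 2000 to 5000 UMIs (148 cells), and Hspa1b at 351, 318 and 325 CPM. In WT cortical replicate 2, Hspa1a was at 354 CPM in the shallowest of these bins and at 105 to 129 CPM in the 3 deeper ones. In null hippocampal replicate 2 it was at 218 CPM at 2000 to 5000 UMIs and at 129 CPM at 10000 or more. In oligodendrocytes of 500 to 2000 UMIs, Hspa1a was highest in null hippocampal replicate 2, at 833 CPM (interval 539 to 1230, 25 UMIs in 7 of 28 cells), against the 221 CPM of the chosen library (195 to 249, 1005 cells) and the 193 CPM of WT cortical replicate 2 (149 to 246, 321 cells). For Hspa1b the order was the other way, with 325 CPM in the chosen library (293 to 358) and 267 CPM in null hippocampal replicate 2 (115 to 525). The shares of these cells with Hspa1a, 25% (Wilson 95% interval 12.7 to 43.4) in null hippocampal replicate 2 and 18.1% (15.9 to 20.6) in the chosen library, overlapped. The median mitochondrial share of these cells was 5.64% in null hippocampal replicate 2, 2.34% in the chosen library and 2.68% in WT cortical replicate 2, and its part in the level was not tested. WT hippocampal replicate 3 held 24.6 CPM of Hspa1a (2.98 to 88.9, 75 cells). No Hspa1a UMI was found in 79 such cells of null cortical replicate 2 (interval 0 to 46.2 CPM), in 65 of WT cortical replicate 3 (0 to 55.5 CPM) or in 43 of WT hippocampal replicate 1 (0 to 56.2 CPM). Within the chosen library Hspa1a was at 232 CPM in cluster 4 (1116 cells), 300 CPM in cluster 3 (33 cells) and 147 CPM in the unnamed cluster 12 (804 cells), which carries markers of both mature and newly formed oligodendrocytes. These intervals, like all single-sum intervals here, cover counting error only.

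**Figure D2:**
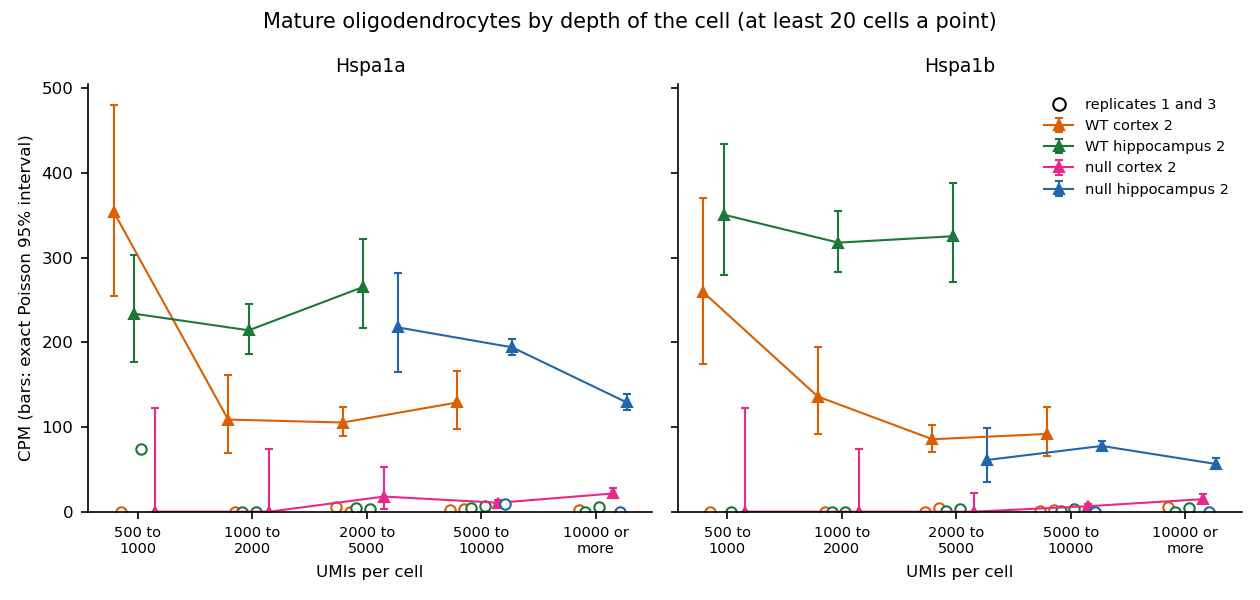
Hspa1a (left) and Hspa1b (right) in mature oligodendrocytes, in CPM with exact Poisson 95% intervals, by the number of UMIs in the cell. Lines join the bins of each replicate-2 library, open circles are replicates 1 and 3, and WT hippocampal replicate 2 stays between 214 and 265 CPM of Hspa1a from its shallowest to its deepest bin.

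The pair was often found in the same oligodendrocytes, the class by which it was chosen. Of the oligodendrocytes with an Hspa1a UMI, 54.4% also had Hspa1b in WT hippocampal replicate 2, against 22.6% of the others, at median depths of 1521 and 1219.5 UMIs. The shares were 47.3% and 10.8% in WT cortical replicate 2, 36.2% and 3.29% in null cortical replicate 2, and 61.8% and 8.99% in null hippocampal replicate 2, where 1 oligodendrocyte held 43 Hspa1a UMIs. Over the replicate-2 libraries the shares were 17.6 to 48.5% against 3.94 to 12.3% in SST cells. In NGFCs they were 21.7 to 50.3% against 6.19 to 21.6%, and close to each other in null cortical replicate 2 (21.7% and 18.4%). Fos, an immediate early gene, was found in 37.9 to 46.6% of oligodendrocytes with Hspa1a and in 11.5 to 19.0% of those without in these 4 libraries. Cells with Hspa1a were the deeper ones in each library, with medians of 2727 against 2511 UMIs in WT cortex, 9472 against 7977.5 in null cortex and 8650.5 against 8140 in null hippocampus, and the part of depth in these shares was not tested.

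The balance between the copies is given as a description, since the chosen library's oligodendrocytes are part of its sum. Hspa1b made up 55.6% of the UMIs of both genes in WT hippocampal replicate 2 (exact binomial 95% interval 53.6 to 57.5), 40.6% in WT cortical replicate 2 (38.1 to 43.1), 36.8% in null cortical replicate 2 (33.0 to 40.7) and 28.6% in null hippocampal replicate 2 (27.6 to 29.6). In PVALB cells, which the choice did not use, it was 42.7% in WT hippocampus (31.3 to 54.6), 42.1% in WT cortex (35.5 to 48.9), 55.6% in null cortex (41.4 to 69.1) and 26.5% in null hippocampus (21.8 to 31.7), so the WT libraries overlapped. These intervals hold no spread between libraries. Within null hippocampal replicate 2 the share was 26.5 to 33.9% in the 8 classes with at least 20 such UMIs, and within WT hippocampal replicate 2 it was 42.7 to 58.8% in 7. It was 27.4 to 51.3% over the classes of WT cortical replicate 2 and 23.8 to 55.6% over those of null cortical replicate 2, where several classes held few UMIs. In WT replicates 1 and 3 of both regions it was 7.69 to 23.9% over all cells, and 0 of 28 UMIs in null hippocampal replicate 1 (interval 0 to 12.3%). Replicate 2 has 1 library per region and genotype, and a difference of this share by region or genotype was not tested.

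**Figure D3:**
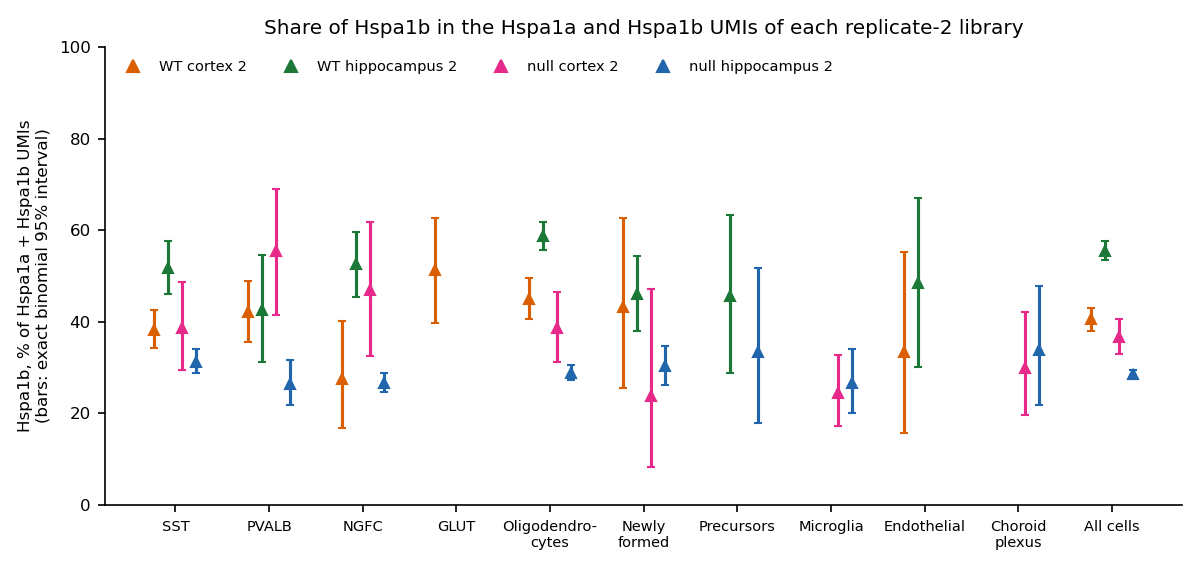
Share of Hspa1b in the UMIs of Hspa1a and Hspa1b together in each replicate-2 library, by class, with exact binomial 95% intervals, for sums of at least 20 such UMIs. Over all cells the share runs from 28.6% in null hippocampus to 55.6% in WT hippocampus.

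The other members did not separate with the pair in the 4 main classes. Hspa8, Hsp90aa1, Hsph1, Dnajb1 and Hspa5 overlapped between replicate 2 and the other libraries in SST, PVALB, NGFC and oligodendrocyte sums, and Hspb1 was too low there for the filter. In SST cells Hspa8 was at 661 to 1065 CPM in replicate 2 and 683 to 1291 CPM elsewhere, and Hsp90aa1 at 914 to 1889 and 975 to 1935 CPM. Of a list of other HSF targets and cytosolic chaperones, such as Hsp90ab1, Dnaja1 and Bag3, 0 of 26 tested in SST cells, 0 of 23 in PVALB cells, 0 of 23 in NGFCs and 0 of 26 in oligodendrocytes were higher in every replicate-2 library, counts that lie near the shares over all genes (2.2%, 3.05%, 2.08% and 4.19%). The TRiC chaperonin, which folds cytoskeletal proteins, and the mitochondrial chaperones had 0 of 8 each higher in the 4 classes. Of the endoplasmic reticulum stress genes 2 of 18, Atf4 and Herpud1, were higher in oligodendrocytes, and 0 in the interneuron classes. Of 4 heat-shock factors and regulators tested, Hsf2 was higher in oligodendrocytes, and Hsf1 was at 8.20 to 13.2 CPM over all cells in replicate 2 and 12.1 to 17.9 CPM elsewhere. Hsph1 was highest in both WT replicate-2 libraries, with 228 and 279 CPM in SST cells and 100 and 219 CPM in oligodendrocytes, but was 127 and 123 CPM (SST) and 33.7 and 52.2 CPM (oligodendrocytes) in the null replicate-2 libraries. In smaller classes Dnajb1 was higher in each replicate-2 library of oligodendrocyte precursors (47.5 to 76.7 against 25.9 to 45.8 CPM). Choroid plexus had 2 libraries of each kind, both replicate-2 sums with 12 cells. Dnajb1 (186 to 666 against 0 to 25.1 CPM) and Hspb1 (333 to 1274 against 33.5 to 163 CPM, the 333 from 3 UMIs) were higher there, and Hspa5 lower (124 to 666 against 718 to 750 CPM). Microglia had 3 of each kind, with Hspa5 higher (529 to 680 against 426 to 518 CPM) and Hsph1 lower (0 to 17.1 against 35.1 to 47.3 CPM). Hsph1 was seen there in 0, 1 and 0 cells of replicate 2 and in 1, 4 and 3 elsewhere. The share of all genes that separated was not computed for these smaller classes.

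Immediate early genes that respond to tissue dissociation did separate with the pair. Of this list, which holds Fos, Jun, Egr1 and Dusp1 among 20 genes, 9 of 16 tested in SST cells, 7 of 14 in PVALB cells, 12 of 14 in NGFCs and 12 of 13 in oligodendrocytes were higher in every replicate-2 library than in every other. Their summed level was 1157 to 2016 CPM in SST cells of replicate 2 against 529 to 944 CPM elsewhere, and 1227 to 2173 against 617 to 914 CPM in oligodendrocytes without the chosen library. Over all cells Fos was at 228, 289, 55.4 and 233 CPM in replicate 2 of WT cortex, WT hippocampus, null cortex and null hippocampus, and at 5.31 to 35.3 CPM in the other 6, so null cortex was again the lowest of the 4. Median mitochondrial share was 1.93 to 2.15% in replicate 2 and 1.21 to 1.99% elsewhere. The part of cell handling in the level of Hspa1a and Hspa1b was not tested.

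Across 85 sums of 1 class in 1 library with at least 10 cells, the genes most like Hspa1a in log2(CPM + 10) were Fosb (r = 0.73), Dusp1 (0.68), Atf3 (0.67), Jund (0.66) and Klf6 (0.66), of 7372 genes compared. Those most like Hspa1b were Fosb (0.80), Atf3 (0.73), Clk1 (0.71), Jun (0.69) and Klf6 (0.69), of which all except Clk1, a splicing kinase, are immediate early transcription factors. Hspa1a and Hspa1b followed each other (r = 0.91, and 0.94 without the chosen library), and Hsp90aa1 followed Hsph1 (0.84) and Hspa8 (0.67). Hspa1a followed neither Hspa8 (0.16) nor Hsph1 (-0.003). Hspa5 was most like Hsp90b1 (0.78) and Pdia3 (0.74), chaperones of the same organelle, and Hspb1 most like Pltp (0.91), which is high in endothelial cells. The sums share libraries, depth and cell class, so these coefficients describe the sums and carry no p.

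The levels of the other members varied with cell class. Hspa8 was at 965 ± 209 CPM in SST cells (SD, n = 10 libraries), 969 ± 210 in PVALB cells (n = 10), 919 ± 233 in NGFCs (n = 9) and 995 ± 199 in glutamatergic neurons (n = 7). Newly formed oligodendrocytes overlapped the neuronal range, with a median of 928 CPM (475 to 1264, n = 9), and choroid plexus was at 678 to 1220 CPM (n = 4). Hspa8 was at 779 ± 100 CPM in mature oligodendrocytes (n = 10), 342 to 844 CPM in microglia (n = 6) and 507 ± 108 in astrocytes (n = 9). Hsp90aa1 was at 1681 ± 268 CPM in PVALB cells, 1479 ± 342 in SST cells and 1336 ± 319 in NGFCs, at 1167 ± 291 in mature but 551 ± 222 in newly formed oligodendrocytes, and at 305 ± 110 CPM in astrocytes and 282 ± 70.7 in microglia. For both genes each class overlapped the next in the order of medians, and the highest astrocyte library (667 CPM of Hspa8, 398 of Hsp90aa1) was below the lowest PVALB library only for Hsp90aa1 (1155 CPM). Choroid plexus had the highest median of both Hsp90aa1 (2184 CPM, 311 to 5769, n = 4) and Hsph1 (223 CPM, 62.2 to 888) but spanned the range of most other classes. Hsph1 was at 198 ± 49.1 CPM in glutamatergic neurons, 179 ± 46.8 in SST cells and 73.5 ± 54.2 in oligodendrocytes.

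Hspa5 and Hspb1 had another order. Hspa5 had its highest median in choroid plexus (692 CPM, 124 to 750, n = 4), and was at 530 ± 85.3 CPM in microglia (n = 6), 338 ± 101 in newly formed oligodendrocytes (n = 9) and 336 ± 125 in oligodendrocyte precursors (n = 9), against 166 ± 58.4 CPM in NGFCs and 141 ± 39.8 in mature oligodendrocytes, and the lowest microglial library (426 CPM) was above the highest library of SST cells (289 CPM). Hspb1 was highest in endothelial cells and choroid plexus. Endothelial cells, 95 in all, held 225 Hspb1 UMIs (783 CPM, interval 684 to 892), and 54.3 and 84.6% of cells had one in the 2 libraries with at least 10. Choroid plexus was at 33.5 to 1274 CPM in 4 libraries, with markers of mural and ependymal cells in the same cluster. Mature oligodendrocytes held 0 to 0.906 CPM, with a UMI in at most 0.249% of cells, and newly formed oligodendrocytes held none in 1320 cells. The part of free RNA in these low levels was not tested. Microglia were at 0 in 4 of 6 libraries and at 46.9 and 192 CPM in the others, in 1 cell each.

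**Figure D4:**
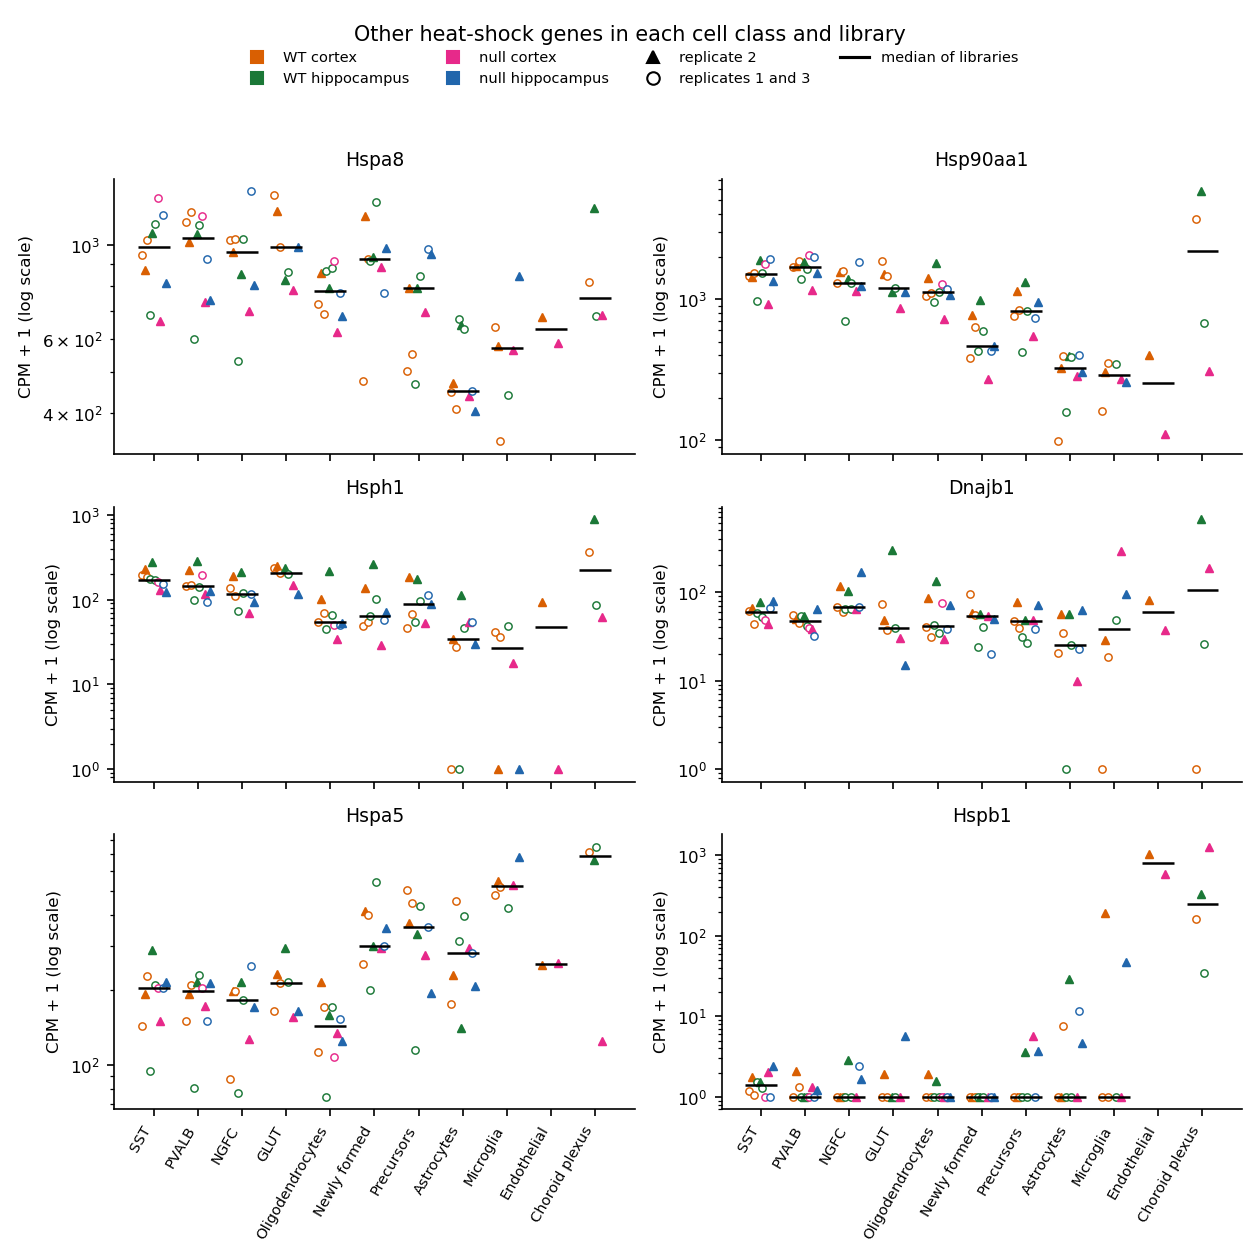
Level of the 6 other genes in each cell class, as CPM + 1 on a log scale, with 1 symbol per library (filled triangles, replicate 2) and a bar at the median. Replicate 2 overlaps the others in the SST, PVALB, NGFC and oligodendrocyte columns, and Hspb1 stands out in endothelial cells (587 and 1035 CPM) and choroid plexus.

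Within the interneurons, NGFCs differed from SST cells in 4 of the 7 members tested (edgeR quasi-likelihood test on sums per library and class, with library as a block, where passing means an adjusted p below 0.01 with a change of 0.1 or more in natural-log units), where 35% of 11255 genes passed. The 4 include Hspa1b, which entered the test only through replicate 2. Hspa1a was at 13.4, 105 and 14.2 CPM in NGFCs of WT cortical replicates 1 to 3, at 10.2, 88.3 and 17.7 CPM in those of WT hippocampus, at 23.5 CPM in null cortical replicate 2 and at 16.6 and 156 CPM in null hippocampus. SST cells of the same libraries had 3.81, 52.7 and 4.66 CPM, then 1.57, 75.5 and 7.98 CPM, then 6.88 CPM, then 3.98 and 70.2 CPM. NGFCs were higher in 9 of 9 libraries, with a log2 difference of 1.14 (SE 0.17, edgeR adjusted p = 1.87e-06). Hspa1b was higher by 1.0 (SE 0.22, edgeR adjusted p = 0.000668), in 6 of 9 libraries, lower in 2 and at 0 in both classes of 1, but it passed the low-count filter only through replicate 2 and was at 0 to 7.39 CPM in both classes elsewhere. Dnajb1 was higher by 0.58 (SE 0.10, edgeR adjusted p = 4.12e-05) in 9 of 9 libraries, at 58.2 to 169 CPM in NGFCs and 42.5 to 78.4 CPM in SST cells. Hsph1 was lower by 0.54 in 9 of 9 libraries (log2 -0.54, SE 0.09, edgeR adjusted p = 9.5e-06), at 68.8 to 211 CPM in NGFCs and 123 to 279 CPM in SST cells.

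Hspa8 (log2 difference -0.01), Hsp90aa1 (-0.09) and Hspa5 (-0.18, SE 0.08, edgeR adjusted p = 0.0838) did not pass, and Hspb1 was below the filter in every comparison tested. Without replicate 2, Hspa1a (log2 difference 1.53, edgeR adjusted p = 0.0002) and Hsph1 (-0.60) passed and Dnajb1 (0.27, edgeR adjusted p = 0.095) did not, while Hspa1b was too low for the filter. Of 25 other HSF targets and chaperones tested, 7 rose and 3 fell in NGFCs, led by the small heat-shock protein Cryab (log2 difference 4.74), Hspa2 (1.10) and Dnajb2 (-0.77), with a list median of 0.09 against 0.02 over all genes. Immediate early genes rose in 8 and fell in 2 of 16, with Cebpd (3.94), Ier2 (1.62) and Fosb (1.19) the largest and a list median of 0.53. Mitochondrial chaperones rose in 3 of 8, TRiC in 1 of 8 (Cct6a, 0.51), heat-shock factors in 1 of 4 (the HSF1 inhibitor Hsbp1, 0.21), and endoplasmic reticulum stress genes rose in 3 of 18, Atf4 (0.62) and Ddit3 (0.46) among them, and fell in 3.

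**Figure D5:**
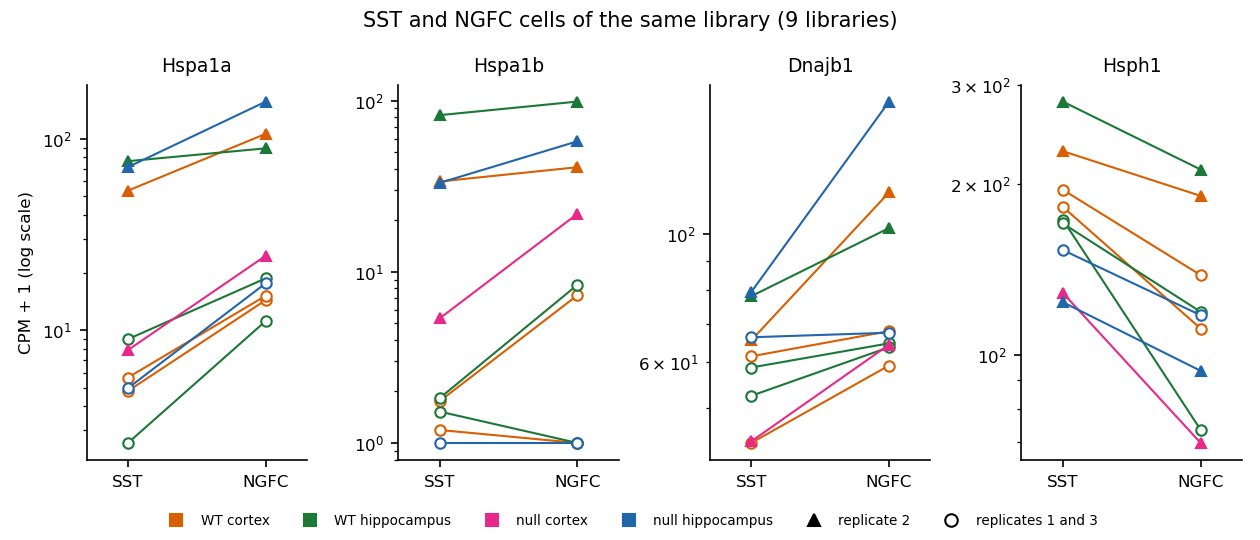
Level of 4 genes in SST cells and NGFCs of the same library, as CPM + 1 on a log scale, 1 line per library (9 libraries). Hspa1a and Dnajb1 lines rise and Hsph1 lines fall in 9 of 9, in replicate 2 (filled triangles) and in replicates 1 and 3 (open circles).

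PVALB cells and SST cells differed in 0 of 7 members at the same threshold, where 32.2% of 11255 genes passed. With the edgeR test 3 members had an unadjusted p under 0.05. These were Dnajb1 (log2 difference -0.32, SE 0.10, edgeR adjusted p = 0.0136), Hsp90aa1 (0.19, SE 0.06, edgeR adjusted p = 0.0160) and Hsph1 (-0.23, SE 0.08, edgeR adjusted p = 0.0245), and DESeq2 on the same sums called 0. Hspa1a differed by 0.06 (SE 0.17), and by 1.01 without replicate 2 (edgeR adjusted p = 0.0052). Other HSF targets and chaperones rose in 4 of 25, with Hspb8 (1.66) and Hspa4l (0.55), and fell in 3, while mitochondrial chaperones rose in 4 of 8, with Hspa9 (0.59), and TRiC fell in 2 of 8. Immediate early genes rose in 2 and fell in 2 of 16, with Dusp1 at 0.91, endoplasmic reticulum stress genes rose in 3 and fell in 3 of 18, with Atf4 at 0.58, and 0 of 4 heat-shock factors passed.

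Between interneurons and mature oligodendrocytes of 9 libraries, 77.1% of 14095 genes passed and 3 of the 5 members that could be tested did. Hsph1 was higher in interneurons by a log2 difference of 0.81 (SE 0.09, edgeR adjusted p = 3.52e-07), and by CPM in 10 of 10 libraries. Hspa8 was lower by 0.36 in the scaled fit (log2 -0.36, SE 0.11, edgeR adjusted p = 0.00764) and Hspa5 by 0.30 (log2 -0.30, SE 0.10, edgeR adjusted p = 0.00797), but both signs turned under library-size scaling (0.27 and 0.32, where the median of all genes was 0.64) and DESeq2 (0.03 and 0.08, median 0.40), and by CPM both were higher in interneurons in 9 of 10 libraries. Hsp90aa1 (-0.24, edgeR adjusted p = 0.0230) and Dnajb1 (-0.19, edgeR adjusted p = 0.173) did not pass, and turned sign with the same scalings (0.39 and 0.43 with library size, 0.15 and 0.18 with DESeq2). As a description, Hspa1a differed by -0.84 and Hspa1b by -1.45 with TMM scaling, while by CPM Hspa1a was higher in interneurons in 5 of 10 libraries and lower in 5 (median log2 ratio -0.18), and Hspa1b was higher in 2 and lower in 7. Of 27 other HSF targets and chaperones, 11 were higher and 11 lower in interneurons, with Serpinh1 (-6.52), a collagen chaperone, Cryab (-5.24) and Hspb8 (4.80) the largest. TRiC was lower in 7 of 8, with Cct3 at -0.83, and mitochondrial chaperones higher in 5 and lower in 2 of 8, with Hspe1 at 0.89. Endoplasmic reticulum stress genes were higher in 4 and lower in 9 of 18, with Pdia4 (-1.99), Dnajc3 (-1.68) and Pdia3 (-1.31), heat-shock factors higher in 1 (Hsf4, 7.19) and lower in 2 of 5, and immediate early genes higher in 8 and lower in 4 of 19. These list counts follow the scaling. Of all genes 5560 were higher and 5308 lower with TMM scaling, against 7758 and 3337 with library-size scaling and 6788 and 3986 with DESeq2, which moved the median of all genes up by 0.61 and 0.38.

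With the low-count filter and no replicate block, none of the members tested passed between regions or between genotypes. Hippocampus against cortex in WT cells was tested for 6 members in SST, PVALB and NGFC sums and 5 in oligodendrocytes, where 0.0502% of 11963, 0.034% of 8827, 0% of 7793 and 0% of 9907 genes passed. Log2 differences (hippocampus minus cortex) ran from -0.06 to 0.46 in SST cells, -0.27 to 0.63 in PVALB cells, -0.36 to 0.01 in NGFCs and -0.46 to 0.20 in oligodendrocytes, with 0 members at an edgeR p under 0.05 in each. The largest was Hspa1a in PVALB cells (0.63, SE 0.80), whose 2 high libraries of 6 were replicate 2 of each region. Of all genes, edgeR gave an unadjusted p under 0.05 to 895, 373, 205 and 396, and DESeq2 called 134, 26, 4 and 14, with 0 of the tested members.

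Null against WT was tested in 7 members in interneuron classes and 5 in oligodendrocytes, and 0% of the 12840 genes in SST cells, 9736 in PVALB cells, 9728 in NGFCs and 10297 in oligodendrocytes passed in either region. An edgeR p under 0.05 was reached by 270, 355, 146 and 330 genes in cortex and 488, 301, 303 and 183 in hippocampus, and DESeq2 called 2, 17, 0 and 0 genes and 2, 1, 1 and 1, with 0 of the tested members. Hspa1a differed between null and WT by -1.61 (SE 1.53) in cortical SST cells and 0.51 (SE 1.29) in hippocampal SST cells, by -1.49 and 0.28 in PVALB cells, and by -0.89 and 1.18 in NGFCs, so that standard errors without a replicate block were as large as most differences, and cortical NGFCs rest on 1 null library. With the replicate numbers as a block, the cortical Hspa1a difference was -2.46 in SST cells (SE 0.72, edgeR adjusted p = 0.905). It was -2.27 in PVALB cells (SE 0.48, edgeR adjusted p = 0.110) and -2.07 in NGFCs. The blocked hippocampal differences were 0.006, -0.22 and 0.66, and none passed in SST or PVALB cells. Hsph1 was the only member lower in null cells in all 8 fits, by log2 differences of -0.48, -0.19, -1.08 and -0.99 in cortical SST, PVALB, NGFC and oligodendrocyte sums and -0.57, -0.70, -0.38 and -0.07 in hippocampal ones. None passed, the smallest unadjusted p being 0.0189 in cortical oligodendrocytes (SE 0.37, edgeR adjusted p = 0.9999). These fits share libraries, and without replicate 2 the cortical PVALB difference was 0.42. Other chaperone, TRiC, mitochondrial, endoplasmic reticulum, heat-shock factor and immediate early lists had 0 genes called in these 12 fits. As a description in oligodendrocytes without the chosen library, Hspa1a differed between null and WT by -1.60 in cortex and 4.16 in hippocampus, and Hspa1b by -2.02 and 4.12. The hippocampal values set both null replicates against WT replicates 1 and 3 only. With the replicate numbers as a block, 67 of 10297 genes passed in cortical oligodendrocytes, and Hsph1 did not (-1.15, edgeR adjusted p = 0.0350). The blocked differences of Hspa1a (log2 -2.93) and Hspa1b (-3.45) there are given with no call, since the pair was chosen in this class. In replicate 2, Hspa1a was at 14.2 CPM in null and 123 CPM in WT cortex, while in replicate 1 it was at 8.24 CPM in null cortex, from 1 UMI in 18 cells, and at 2.67 CPM in WT cortex.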

How the data were processed

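The data were 4 matrices, 1 for each region and genotype, of UMI counts per gene and cell. The authors made these deposited counts with 10x Genomics software from reads aligned to mm10, after lengthening each gene's end by 4 kb. The submitters' processing notes name Cell Ranger 2.1.1. Libraries were told apart by barcode suffix and matched to replicates by the cell numbers in the study's methods, and each pooled animals, so p-values measure the spread between libraries. The members and gene lists were chosen with earlier results of these data known.

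Cells were kept if they had 200 to 6000 genes and a mitochondrial share below 30%, then clustered with Seurat 5.3.0 (integration over the 4 matrices, 25 dimensions, resolution 1.0), with the members and lists left out of the variable genes. Replicate libraries within a matrix were not integrated with each other. Of 34 clusters, 5 (3217 cells) stayed unnamed and entered no class. Scrublet in scanpy 1.11.5 marked 253 cells as doublets, which were left out only as an alternative. At most 0.158 to 0.552% of a library's barcodes were shared with another library. Gene coordinates are from GENCODE vM21.

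Counts were summed per library and class with at least 10 cells and tested with edgeR 4.0.16 (R 4.3.3, quasi-likelihood test, TMM scaling, low-count filter, Benjamini-Hochberg adjustment over all genes tested). A gene passed with an adjusted p below 0.01 when its change was 0.1 or more in natural-log units. DESeq2 1.42.0 was an alternative. Region and genotype fits had no replicate block, and class fits had the library as a block. All fits with oligodendrocytes left out WT hippocampal replicate 2, by which Hspa1a and Hspa1b were chosen. Same-numbered WT libraries of both regions deviated together from their region means (r = 0.391 to 0.689 in SST cells, 0.332 to 0.580 in PVALB cells, 0.229 to 0.568 in NGFCs and 0.430 to 0.777 in oligodendrocytes), so the replicate numbers pair them. The tests were tried on simulated data first. All 8 members were named, and of each list up to 3 passing genes with the largest change. Intervals are 95% ones, exact for CPM and for the Hspa1b share and Wilson's for shares of cells, and cover counting error only.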

Additional observations from a re-analysis of the deposited data

Results flagged for a closer look

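In 19 sets of 4 to 10 values checked, 2 had a library far from the others by Dixon's test, which chance does in about 1 of 20 sets. The log2 ratio of Hspa8 in interneurons over oligodendrocytes was -0.46 in WT hippocampal replicate 1, against a median of 0.32 and a highest value of 0.65 over 10 libraries. For Hsph1 the same ratio was 0.25 in WT hippocampal replicate 2, against a median of 1.36 and a highest value of 1.83. That library had 219 CPM of Hsph1 in oligodendrocytes.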

How the results depend on the processing

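Between regions and genotypes, no member passed under a setting run, leaving aside Hspa1a and Hspa1b in oligodendrocytes, which get no call there. Their values in that class rest on which replicate-2 libraries a fit holds, as WT hippocampal replicate 2 is left out and those of WT cortex and null hippocampus are kept. Of the single values, 654 kept direction and side of the threshold, 40 turned sign, 30 lost and 10 gained a call, and 17 others moved. Causes were not tested. Between interneurons and oligodendrocytes, 3 members passed, but 1 did with DESeq2, without replicate 2, without the library block or with the stricter cell filter, and 1 to 3 with single libraries left out (1 without WT cortical replicate 1 or 2, WT hippocampal replicate 1 or 3, null cortical replicate 2 or either null hippocampal replicate). DESeq2 turned Hspa8 to 0.0345, Hsp90aa1 to 0.15, Dnajb1 to 0.18 and Hspa5 to 0.083, library-size scaling turned them to 0.27, 0.39, 0.43 and 0.32, and Dnajb1 was 0.038 without the low-count filter. Between PVALB and SST cells the count was 0, but 3 at adjusted p under 0.05, 2 without the filter, 1 without replicate 2 and 0 to 1 with single libraries left out (1 without WT cortical replicate 3). Hspa1b turned to 0.0324 with DESeq2, Hspa8 to 0.0124 with library-size scaling, 0.0049 with mitochondrial genes left out and 0.0223 at resolution 0.6, where Hspa5 was 0.0327. Between NGFCs and SST cells 4 passed, but 2 without replicate 2, 0 without the library block and 4 to 5 with single libraries left out. Without replicate 2, 2015 genes passed in NGFCs and 1834 in PVALB cells, against 3939 and 3623, and without the block 1529 and 1060.

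With the replicate block, the genes passing between regions were 349 in SST cells (6 without it), 56 in PVALB cells (3), 8 in NGFCs (0) and 250 in oligodendrocytes (0), and between genotypes 5 in cortical PVALB cells, 67 in cortical and 51 in hippocampal oligodendrocytes (0 each). Under the pairing Hspa1a was -2.93 and Hspa1b -3.45 between null and WT in cortical oligodendrocytes, given with no call, and the calls of the members tested did not change. Hspa1a in hippocampal PVALB cells was -0.22 between null and WT with the block and -0.14 with replicates 1 and 2 only. In hippocampal SST cells it was -0.0055 with replicates 1 and 2 and -0.29 without replicate 2, and in cortical SST cells 0.40 without replicate 2. Hsph1 was 0.42 in cortical PVALB cells without replicate 2 and 0.17 in hippocampal oligodendrocytes with replicates 1 and 2. With single libraries left out, Hsph1 ran from -0.61 to 0.19 in cortical PVALB cells, -0.66 to 0.15 in hippocampal NGFCs and -0.29 to 0.16 in hippocampal oligodendrocytes. Hspa1a ran from -2.09 to 0.58 in cortical SST cells, -1.37 to 0.74 in cortical NGFCs, -2.74 to 2.96 in hippocampal SST cells, -1.12 to 1.498 in hippocampal PVALB cells and -1.14 to 2.63 in hippocampal NGFCs. Between PVALB and SST cells, Hspa1a ran from -0.10 to 0.27, Hspa1b from -0.38 to 0.0718 and Hspa8 from -0.0359 to 0.0282. In oligodendrocytes of WT hippocampal replicate 2, Hspa1a was 271 CPM with the stricter cell filter and 204 CPM at resolution 0.6, and Hspa1b 366 and 282 CPM. Several Hspa1a and Hspa1b sums outside replicate 2 hold under 10 UMIs, which limits their precision.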
